A study of Homo sapiens with 21 samples.

Results

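The genes described here are 10 members of the Hippo signalling pathway and its transcriptional output, measured by RNA-Seq in SK-N-BE(2) cells, a human neuroblastoma cell line, after shRNA silencing of the BAF subunits ARID1A and ARID1B. They were taken by gene symbol from the deposited table, and all 10 were found among its 60728 rows and among the 18584 genes that passed the filter on low counts. The members were chosen by their values against control, YAP1 being lower and NF2 higher, so the values against control are a description and carry no test. The 10 genes are the co-activators YAP1 and WWTR1 (which encodes TAZ), the DNA-binding partners TEAD1, TEAD2, TEAD3 and TEAD4, the upstream inhibitor NF2, and CCN1, CCN2 and AMOTL2, which are widely used as readouts of YAP and TAZ activity.

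All 21 libraries came from the same cell line, transduced with lentivirus carrying shRNA plasmids and collected 72 h later, with 3 libraries in each of 7 conditions. The control received a non-silencing shRNA. The silenced conditions are labelled shARID1A.2 and shARID1A.4 (ARID1A silencing), shARID1B.2 and shARID1B.3 (ARID1B silencing), and shARID1A/B.2.3 and shARID1A/B.4.2 (silencing of both genes). Each label thus stands for a pair of shRNAs or of shRNA combinations and 6 libraries. The numbers in the combination labels recur in the single labels, so conditions under different labels can share an shRNA. Depth ran from 27954334 to 41077638 reads per library with a median of 34973565, and values are reads divided by the size factor of the library, called normalized values below.

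The targeted genes went against the labels, and the labels are used here only as names. In the libraries labelled shARID1A both genes were low: ARID1A was at 34.0% of the control mean in shARID1A.2 and 35.5% in shARID1A.4, and ARID1B at 38.7% and 53.5%. In the libraries labelled shARID1B it was ARID1A that was low, at 30.4% of control in shARID1B.2 and 39.3% in shARID1B.3, while ARID1B stood at 86.3% and 105%. In the libraries labelled shARID1A/B it was ARID1B that was low, at 44.8% in shARID1A/B.2.3 and 32.9% in shARID1A/B.4.2, with ARID1A at 89.7% and 86.2%. Every direction given below therefore refers to the libraries as labelled, with both genes low under shARID1A, ARID1A low under shARID1B and ARID1B low under shARID1A/B.

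**Figure D1:**
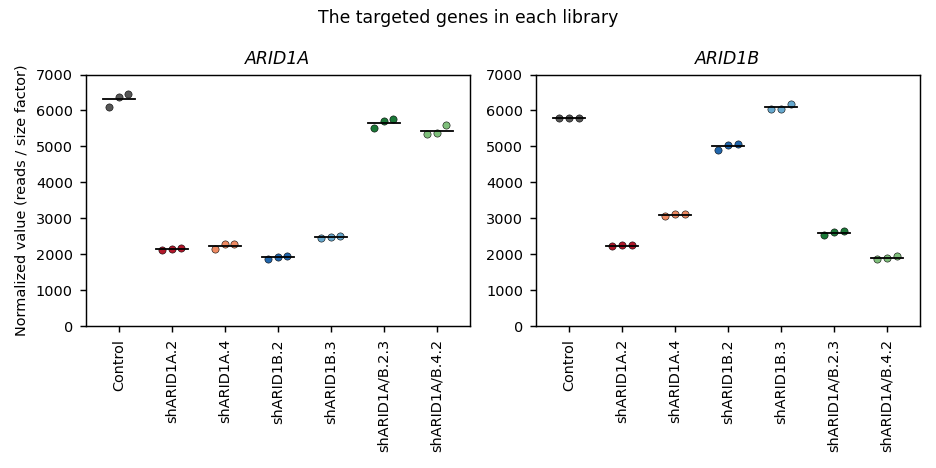
Normalized values of ARID1A (left) and ARID1B (right) on a linear axis from 0, with 1 dot per library, 3 libraries per condition and a bar at the mean. ARID1A lay between 1882 and 2507 under both the shARID1A and the shARID1B labels against 6097 to 6463 in the control, and ARID1B lay between 1881 and 3126 under the shARID1A and shARID1A/B labels against 5791 to 5804 in the control.

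The Hippo pathway is a kinase cascade in which STK3 and STK4 activate LATS1 and LATS2, which phosphorylate YAP and TAZ and so keep them out of the nucleus. Merlin, the product of NF2, acts at the cell cortex to promote LATS activity, and YAP and TAZ that escape phosphorylation bind TEAD proteins on DNA and switch on genes such as CCN1 and CCN2. In neuroblastoma, YAP and TAZ are known mainly from cells of the mesenchymal type, whereas adrenergic, MYCN-amplified lines such as SK-N-BE(2) keep markers of the sympathoadrenal lineage. All 11 adrenergic markers examined were expressed, and so were 8 of 10 mesenchymal markers, with control means of 54216 for VIM, 5269 for FN1, 3809 for TWIST1, 3384 for NOTCH3 and 628 for SNAI2. PRRX1 and MEOX2, the other mesenchymal markers, stayed under a normalized value of 5 in every library.

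Because the members include the TEAD factors and genes read out as their targets, the 250 bases before the RefSeq start sites were searched for the core TEAD motif, GGAATG or its reverse complement CATTCC. The 7 members with a promoter entry have 11 such windows, and the motif was present in 3 of them (YAP1, CCN2 and the second start site of AMOTL2), beside 11.9% of 35116 promoter windows of the same length. TEAD1, TEAD4 and CCN1 had no entry. The AP-1 motif TGANTCA, found in 6.57% of all windows, was in 0 of the 11. The stretches that hold the matches are given from the GRCh38.p14 RefSeq promoters, 5′ to 3′ on the strand of the gene and with the motif in capitals, since CCN2 and AMOTL2 are among the genes that varied most between shRNAs and YAP1 is the co-activator itself. The YAP1 stretch is the whole window (chr11:102110197-102110446, plus strand), CCN2 is 130 bases that touch no annotated exon (chr6:131951437-131951566, minus strand), and AMOTL2 is 30 bases around the match at its second start site, which touch an annotated exon (chr3:134374499-134374528, minus strand). ANKRD1, a target gene described further on, is added for its 2 matches (chr10:90921290-90921319 and, in an annotated exon, chr10:90921198-90921227, minus strand). It was picked for these matches. Of 13 genes named by rule from the pathway lists below, 10 had an entry, with 17 windows. The TEAD motif was in 2 of these windows (ANKRD1 and AXL), which is near the share of all windows. The AP-1 motif was also in 2 (ANKRD1 and MOB1B).
YAP1: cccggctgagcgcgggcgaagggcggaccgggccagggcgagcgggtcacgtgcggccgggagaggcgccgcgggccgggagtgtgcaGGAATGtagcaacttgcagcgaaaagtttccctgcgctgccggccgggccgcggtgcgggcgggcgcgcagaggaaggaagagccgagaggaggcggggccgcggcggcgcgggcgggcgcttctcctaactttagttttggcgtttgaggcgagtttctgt
CCN2: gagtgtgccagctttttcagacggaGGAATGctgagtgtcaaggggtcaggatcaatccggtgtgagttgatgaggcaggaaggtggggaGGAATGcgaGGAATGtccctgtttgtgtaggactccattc
AMOTL2: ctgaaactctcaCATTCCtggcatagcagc
ANKRD1 distal: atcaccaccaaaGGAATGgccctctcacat
ANKRD1 proximal: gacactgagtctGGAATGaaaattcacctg
CCN2 carries 3 copies of the motif in this stretch, and 2 of them are separated by only the bases cga. A match describes these letters and not a bound site.

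YAP1 (ENSG00000137693.14, chromosome 11, 102110461 to 102233423), the main co-activator of the pathway, was lower than every control library in all silenced libraries, by amounts that differed widely between shRNAs. Its normalized values were 516, 531 and 547 in the control libraries, 236, 246 and 251 in shARID1A.2, and 53.5, 53.9 and 73.8 in shARID1A.4. They were 449, 469 and 470 in shARID1B.2 and 212, 218 and 227 in shARID1B.3. They were 116, 125 and 128 in shARID1A/B.2.3 and 197, 233 and 255 in shARID1A/B.4.2. The shARID1A.4 libraries thus held the lowest YAP1, 11.4% of the control mean or a log2 difference of -3.13 (SE 0.10), and shARID1B.2 stayed nearest to the control at 87.1%. From low to high the order was shARID1A.4, shARID1A/B.2.3, shARID1B.3, shARID1A/B.4.2, shARID1A.2, shARID1B.2 and control, and the ranges of neighbouring conditions overlapped only among shARID1B.3, shARID1A/B.4.2 and shARID1A.2. In bulk RNA, fewer cells with YAP1 transcripts and less transcript per cell cannot be told apart.

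WWTR1 (ENSG00000018408.14, chromosome 3, 149517235 to 149736714), which encodes the YAP paralogue TAZ, was furthest below control in the same pair of conditions that had the lowest YAP1. The control libraries had 758, 779 and 819, those of shARID1A.4 had 358, 389 and 406, and those of shARID1A/B.2.3 had 221, 235 and 260. These last were at 30.4% of the control mean, a log2 difference of -1.72 (SE 0.06), and shARID1A.4 at 49.0%. The other 4 conditions were between 83.5% and 93.6% of control, and shARID1A.2 overlapped the control range with libraries at 707, 713 and 779. With scaling to total reads WWTR1 was no longer below control in shARID1A.2 (0.07), shARID1B.2 (0.04) and shARID1A/B.4.2 (0.05 on the log2 scale).

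Among the TEAD factors, which give YAP and TAZ their DNA binding, the levels per kilobase of exon in control cells ranged from 1205 for TEAD1 and 968 for TEAD2 down to 290 for TEAD3 and 76.1 for TEAD4, so that TEAD1 and TEAD2 were each more than 10 times as abundant as YAP1 (84.4) or WWTR1 (93.3). TEAD1 (ENSG00000187079.19, chromosome 11, 12674591 to 12944483) was below its control range of 12111 to 12631 in all silenced libraries, with means between 68.7% of control in shARID1A/B.4.2 and 88.7% in shARID1A.4. Its lowest conditions were not those of YAP1: shARID1A.4, where YAP1 was lowest, had the highest TEAD1 of the silenced conditions.

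TEAD2 (ENSG00000074219.14, chromosome 19, 49340595 to 49362457) had the widest range of the 4 factors on the log2 scale. The control libraries had 2874, 2889 and 2893, shARID1A.4 had 1457, 1492 and 1530, and shARID1A/B.2.3 had 1228, 1295 and 1305, or 44.2% of the control mean. In shARID1B.3, with 3066, 3077 and 3136, it was above every control library. TEAD2 was thus lowest in the conditions that were lowest for YAP1 and WWTR1, and its ranges in those conditions did not overlap any other.

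TEAD3 (ENSG00000007866.21, chromosome 6, 35473597 to 35497076) was below the control range of 861 to 902 in 5 of the 6 silenced conditions. In shARID1A/B.4.2 it was above, with 1098, 1136 and 1161 or 128% of the control mean. TEAD4 (ENSG00000197905.9, chromosome 12, 2959330 to 3040673), the least abundant of the factors, was furthest from its control range of 159 to 193 in shARID1A.2, with 101, 110 and 110 or 61.9% of the control mean. The shARID1A/B.2.3 libraries, at 150 to 152, were also just below the control range. In shARID1A.4, shARID1B.2 and shARID1B.3 its libraries overlapped the control range, with means of 102%, 102% and 116% of control.

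NF2 (ENSG00000186575.19, chromosome 22, 29603556 to 29698598), which encodes the tumour suppressor merlin, was higher than every control library in all 18 silenced libraries, and the shRNAs of each label gave nearly the same level. The control libraries had 1121, 1171 and 1226. The shARID1A.2 libraries had 2264, 2266 and 2307 and those of shARID1A.4 had 2443, 2446 and 2458, whereas the shARID1B.2 libraries had 1809, 1813 and 1929 and those of shARID1B.3 had 1787, 1807 and 1859. The shARID1A/B.2.3 libraries had 2154, 2275 and 2304, and those of shARID1A/B.4.2 had 2261, 2307 and 2357. As a percentage of the control mean, NF2 was at 194% and 209% under the shARID1A label, 158% and 155% under the shARID1B label, and 191% and 197% under the shARID1A/B label. Log2 differences from control ran from 0.63 in shARID1B.3 to 1.06 in shARID1A.4 (SE 0.03), and no library labelled shARID1B reached the lowest library of either other silenced label. Of all tested genes, 15.8% had mean log2 values above the control mean in all 6 silenced conditions.

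**Figure D2:**
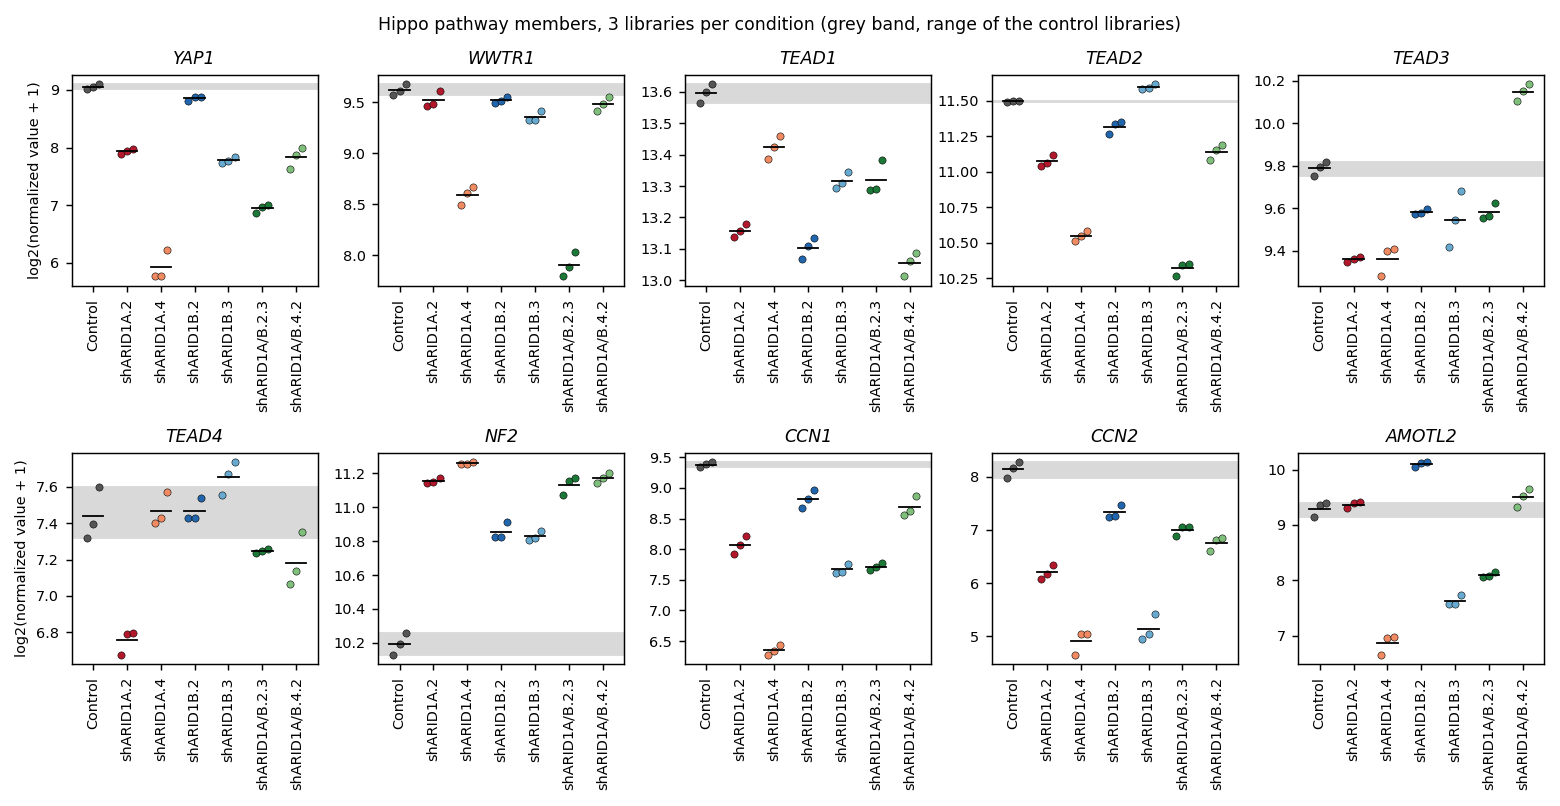
Log2(normalized value + 1) of the 10 genes, with 1 dot per library, 3 libraries per condition, a bar at the mean and a grey band over the range of the control libraries. Each panel has its own vertical axis, which does not start at 0. YAP1 is below the band in every silenced library, NF2 is above it in every silenced library, and AMOTL2 lies on both sides.

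CCN1 (ENSG00000142871.17, chromosome 1, 85580761 to 85583962), a secreted matricellular protein and YAP readout, was below its control range of 648 to 682 in all silenced libraries. The lowest values were in shARID1A.4, with 76.7, 79.8 and 85.6, and the highest in shARID1B.2, with 408, 451 and 498. The shARID1B.3 libraries (195, 198 and 217) overlapped those of shARID1A/B.2.3 (200, 208 and 219). CCN1 thus shared its lowest and its highest silenced condition with YAP1.

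CCN2 (ENSG00000118523.6, chromosome 6, 131948176 to 131951373), also known as CTGF and the gene with 3 motif copies above, was likewise below control in all silenced libraries. The control libraries had 252, 287 and 307, those of shARID1A.4 had 24.3, 31.9 and 32.1, and those of shARID1B.3 had 29.9, 31.9 and 41.8. The last 2 conditions overlapped, at 10.5% and 12.3% of the control mean. They differed in ARID1B, which was low in shARID1A.4 and not in shARID1B.3, and in YAP1, with means of 60.4 and 219. The other conditions lay between 66.8 in the lowest shARID1A.2 library and 176 in the highest shARID1B.2 library.

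AMOTL2 (ENSG00000114019.14, chromosome 3, 134355874 to 134375479), an angiomotin family protein that binds YAP and is itself a target of YAP, was on both sides of the control. The control libraries had 563, 652 and 670, those of shARID1A.4 had 99.8, 124 and 125, and those of shARID1B.3 had 188, 190 and 213. The shARID1A/B.2.3 libraries were also lower, with 265, 269 and 284, whereas the shARID1B.2 libraries were higher, with 1057, 1109 and 1119 or 174% of the control mean. The remaining conditions, shARID1A.2 (630, 670 and 678) and shARID1A/B.4.2 (642, 738 and 804), overlapped the control range. AMOTL2 was therefore below control in 1 condition of each label and overlapping or above it in the other.

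**Figure D3:**
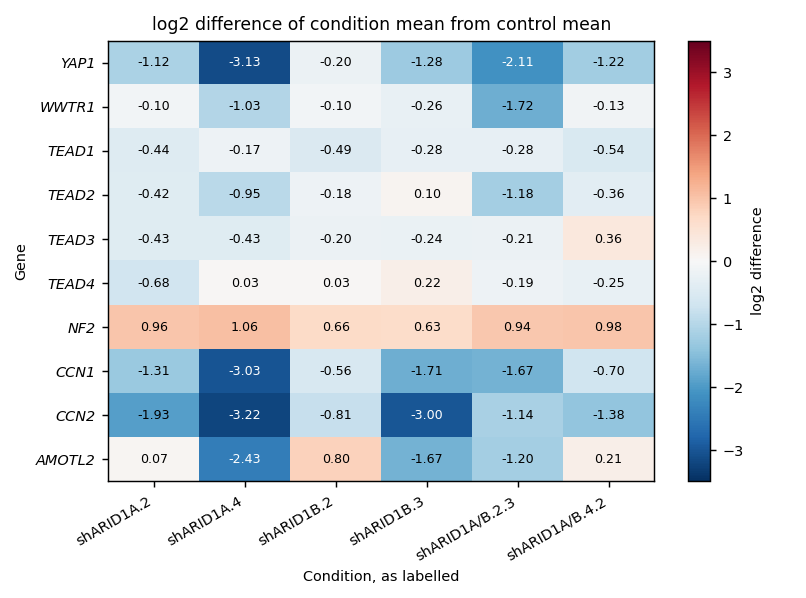
Log2 difference of each condition mean from the control mean for the 10 genes (rows) in the 6 silenced conditions (columns), with the value printed in each cell; blue is lower and red is higher. The NF2 row runs from 0.63 to 1.06, and the YAP1 row from -3.13 to -0.20.

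Of all tested genes, 76.1% differed from control in shARID1A.2, 73.6% in shARID1A.4, 65.6% in shARID1B.2, 63.9% in shARID1B.3, 69.2% in shARID1A/B.2.3 and 71.2% in shARID1A/B.4.2, each condition taken alone, with limma and Benjamini-Hochberg adjusted p under 0.05. Mean log2 values were below the control mean in all 6 silenced conditions for 14.5% of all tested genes and for 5 of 10 members. They were above it in all 6 for 15.8% of all tested genes and for 1 member, NF2. How many genes lay outside the control range in every silenced library was not counted. Since the contrast with control chose the members and the 6 comparisons share the same control libraries, nothing is read from it. The median of all genes moved by as much as 0.20 on the log2 scale (shARID1A/B.4.2) when libraries were scaled to total reads, against 0.02 as deposited, and the differences above are relative to the deposited scaling.

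Setting the silenced labels against each other takes no control library into the contrast and asks whether the members differ with which of ARID1A and ARID1B is low. The libraries labelled shARID1A, in which both genes are low, had higher NF2 and lower YAP1, TEAD2 and TEAD4 than those labelled shARID1B, in which ARID1A is low. These 4 of 10 members passed the test (limma on 6 against 6 libraries, adjusted over all tested genes), beside 21.4% of all tested genes. The 6 libraries of a label come from 2 shRNAs or 2 shRNA combinations, 3 of each, and the fit treats them as independent. The p-values by label, here and below, can therefore be too small. Labels set against each other can also share an shRNA, which the fit does not take into account. NF2 differed by 0.37 on the log2 scale (SE 0.05, adjusted p = 1.21e-05, limma), with no overlap between the libraries. YAP1 differed by -1.39 (SE 0.40, adjusted p = 0.0172, limma), although the shARID1B.3 libraries (212 to 227) lay below those of shARID1A.2 (236 to 251). With only the 12 libraries of these labels in the fit, YAP1 did not pass (adjusted p = 0.0584, limma). TEAD2 differed by -0.65 (SE 0.17, adjusted p = 0.00888, limma) and TEAD4 by -0.45 (SE 0.14, adjusted p = 0.0279, limma). For TEAD4 the shARID1A.4 libraries (168 to 189) overlapped those of shARID1B.2 (171 to 185) and shARID1B.3 (187 to 212). Only those of shARID1A.2 (101 to 110) lay below both. The TEAD4 call was lost without any 1 of the shARID1A.2 libraries or without replicate 1 or 3 of shARID1B.3, with log2 differences from -0.43 to -0.36, and also without the filter on low counts (adjusted p = 0.0560, limma) or with only the libraries compared (adjusted p = 0.0876, limma). CCN1 differed by -1.03 and narrowly missed (SE 0.37, adjusted p = 0.0542, limma), and it passed without any 1 of the same 5 libraries.

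The libraries labelled shARID1A/B, in which ARID1B is low, also had higher NF2 than those labelled shARID1B. The difference was 0.31 on the log2 scale (SE 0.05, adjusted p = 5.12e-05, limma), again with no overlap between libraries. TEAD2 was lower by -0.73 (SE 0.17, adjusted p = 0.00296, limma) and TEAD3 higher by 0.30 (SE 0.10, adjusted p = 0.0397, limma), so that 3 of 10 members passed beside 27.9% of all tested genes. For TEAD3 only the shARID1A/B.4.2 libraries (1098 to 1161) lay above those labelled shARID1B (682 to 819). The shARID1A/B.2.3 libraries (751 to 788) lay within that range. The TEAD3 call was lost when any 1 of the shARID1A/B.4.2 or shARID1B.2 libraries or replicate 2 or 3 of shARID1B.3 was left out, with differences from 0.23 to 0.30, and also without the filter (adjusted p = 0.0713, limma), with scaling to total reads (adjusted p = 0.0721, limma) and with only the libraries compared (adjusted p = 0.116, limma). YAP1 differed by -0.93 (SE 0.40, adjusted p = 0.0937, limma), and it passed with DESeq2 (adjusted p = 0.0445) and with only the libraries compared (adjusted p = 0.0359, limma). TEAD4 differed by -0.34 (adjusted p = 0.0772, limma) and passed under the same settings (adjusted p = 0.0445 with DESeq2 and 0.0204 with limma). WWTR1 differed by -0.75 (SE 0.30, adjusted p = 0.0725, limma). WWTR1 passed without any 1 of the shARID1A/B.4.2 libraries, at -0.92 to -0.89.

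Between the libraries labelled shARID1A and shARID1A/B, which are both low in ARID1B and differ in ARID1A, 1 of 10 members passed beside 9.31% of all tested genes. TEAD3 was lower under the shARID1A label by -0.50 (SE 0.10, adjusted p = 0.00370, limma). CCN2 differed by -1.32 (SE 0.42, adjusted p = 0.0563, limma), and it passed, for 2 members in all, when replicate 2 of shARID1A.2, any 1 of the shARID1B.2 libraries, or replicate 1 or 3 of shARID1B.3 was left out. For NF2 the difference was 0.05 with an interval of 2 SE from -0.04 to 0.15, and for YAP1 it was -0.46 with an interval from -1.26 to 0.34, so that the interval of NF2 was narrow and that of YAP1 reached beyond a 2-fold decrease. The median absolute difference of the members was 0.41 in this comparison, against 0.20 over all tested genes.

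**Figure D4:**
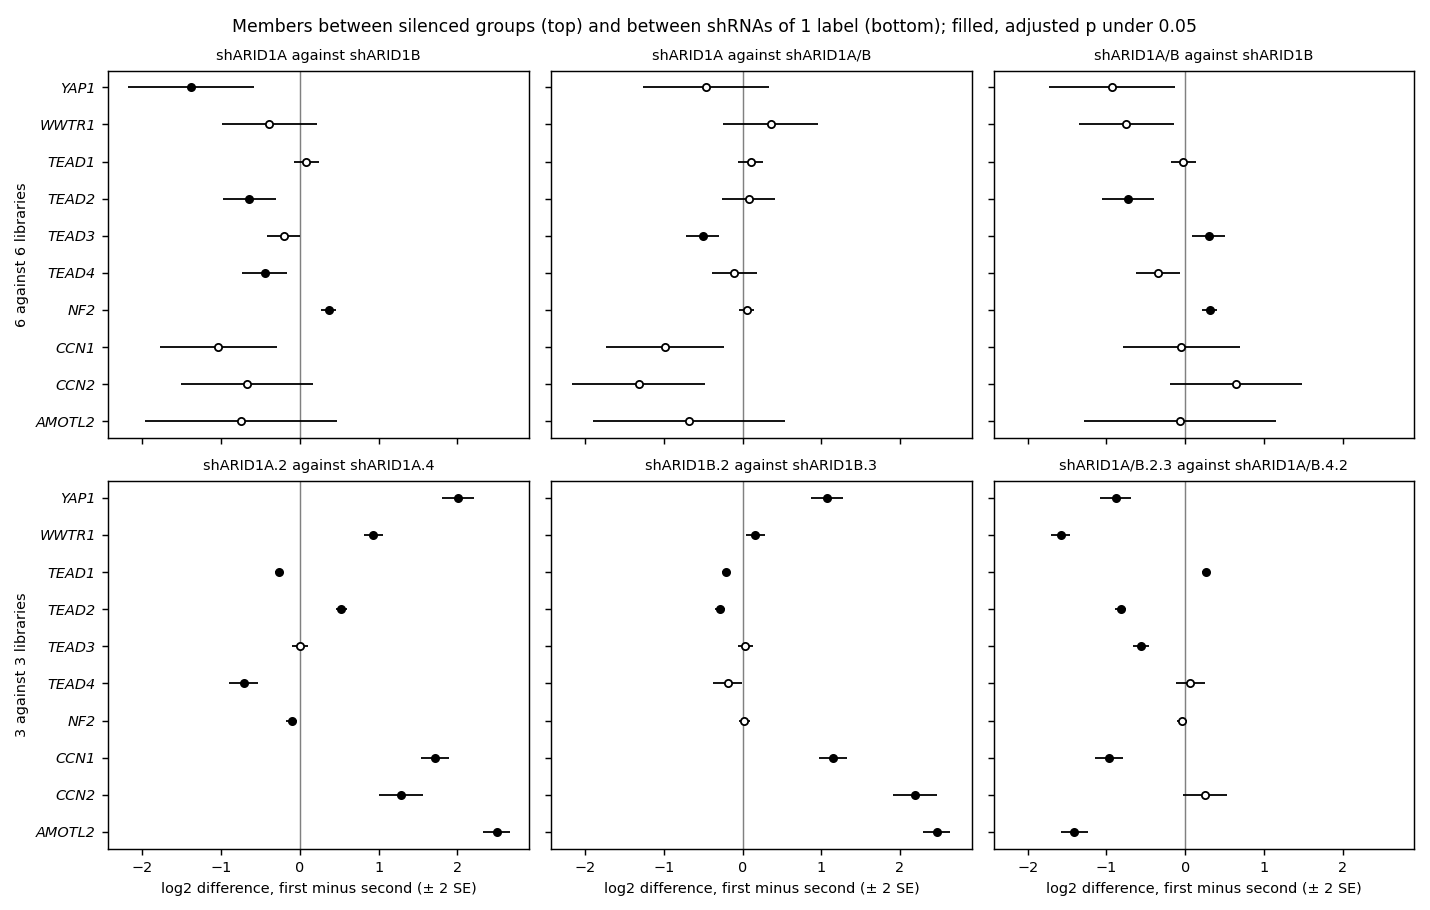
Log2 differences of the 10 members with bars of 2 SE, between silenced labels (top, 6 against 6 libraries) and between the shRNAs of a label (bottom, 3 against 3 libraries). Filled points passed an adjusted p of 0.05 in limma. The NF2 points lie between -0.10 and 0.03 in the bottom panels, where AMOTL2 reaches 2.50 and 2.47 and -1.41.

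Comparing shRNAs that share a label shows how far the members vary while the same target is low, though not equally low. Mean ARID1B was 2241 in shARID1A.2 and 3100 in shARID1A.4. Mean ARID1A was 1920 in shARID1B.2 and 2479 in shARID1B.3. In shARID1A/B.2.3 and shARID1A/B.4.2 mean ARID1B was 2599 and 1907. NF2 differed little: by -0.10 between shARID1A.2 and shARID1A.4 (SE 0.03, adjusted p = 0.00823, limma), by 0.03 between shARID1B.2 and shARID1B.3 (interval -0.04 to 0.09) and by -0.04 between shARID1A/B.2.3 and shARID1A/B.4.2 (interval -0.11 to 0.03). With scaling to total reads these became 0.05, 0.13 (adjusted p = 0.00107, limma) and -0.19 (adjusted p = 1.26e-05, limma), where the medians of all genes moved to 0.18, 0.11 and -0.17. YAP1 was higher in shARID1A.2 than in shARID1A.4 by 2.01 (SE 0.10, adjusted p = 2.80e-15, limma) and in shARID1B.2 than in shARID1B.3 by 1.08 (adjusted p = 8.93e-10, limma), and lower in shARID1A/B.2.3 than in shARID1A/B.4.2 by -0.88 (adjusted p = 2.17e-08, limma). These p-values measure the spread between libraries of 1 shRNA.

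AMOTL2 gave the largest member difference under the shARID1A and shARID1B labels, 2.50 (SE 0.09) and 2.47, and it differed by -1.41 under shARID1A/B. CCN1 differed by 1.72, 1.15 and -0.97 in the same order. CCN2 differed by 1.29 and 2.19 under the shARID1A and shARID1B labels, and by 0.25 under shARID1A/B, which did not pass (adjusted p = 0.114, limma). WWTR1 differed by 0.93 and 0.16 and by -1.58, and the call of 0.16 was lost without replicate 1 of shARID1B.2 or replicate 1 or 2 of shARID1B.3 (0.15 in each case).

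Among the TEAD factors, TEAD2 differed by 0.53, -0.28 and -0.82, TEAD1 by -0.27, -0.21 and 0.27, and TEAD3 by -0.56 under shARID1A/B alone, since its 0.00 and 0.04 under the other labels did not pass. TEAD4 differed by -0.71 under the shARID1A label. Altogether 9 of 10 members passed between the shARID1A shRNAs, beside 75.8% of all tested genes, 7 between the shARID1B shRNAs, beside 66.0%, and 7 between the shARID1A/B combinations, beside 74.9%, so these counts are near the background. The median absolute difference of the members was 0.82, 0.25 and 0.69, against 0.53, 0.37 and 0.51 over all tested genes.

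The other genes of the pathway were not used to choose the members and were tested against control over the 4 labels. Their lists were drawn up with earlier results of these data known, so they are not an independent test. The genes named from them were picked by their values in these same libraries, and their p-values describe a selected set. Of 19 target genes of YAP and TAZ besides the members, 18 passed the filter. Under the shARID1A label 5 fell and none rose, beside 17.2% of all tested genes called lower and 17.8% called higher. Under the shARID1B and shARID1A/B labels 2 fell and none rose in each, beside 7.41% and 12.3% of all tested genes called lower and 7.60% and 11.9% called higher. At an unadjusted p under 0.05 in limma, 0, 1 and 0 target genes were higher under shARID1A, shARID1B and shARID1A/B, and neither edgeR nor DESeq2 called any higher (0 in each label). The medians of the list were -0.86, -0.42 and -0.13 on the log2 scale, where those of all genes were 0.01, -0.01 and 0.01.

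ANKRD1, which encodes a nuclear ankyrin-repeat protein and is among the best-known YAP targets, fell by 3.21 on the log2 scale under the shARID1A label (SE 0.58, adjusted p = 0.000238, limma) and by 2.31 under shARID1B (adjusted p = 0.0104, limma). Its -1.60 under shARID1A/B did not pass (adjusted p = 0.0509, limma), but it passed with DESeq2 (adjusted p = 0.0405) and in 10 of the fits that left out a library. Its control libraries had 1088 to 1229 and its lowest were those of shARID1A.4, with 57.1 to 69.9, followed by shARID1B.3 with 107 to 156. AXL, a receptor tyrosine kinase, fell by 2.00 under shARID1A and 2.20 under shARID1A/B (adjusted p = 0.00133 and 0.000924, limma), and its lowest libraries were those of shARID1A/B.4.2, at 50.6 to 61.0 against 473 to 545 in the control. GADD45A, a stress-response gene, fell by 1.67 and 1.23 in the same groups, and CCDC80, an extracellular matrix protein, fell by 1.52 under shARID1A (adjusted p = 0.0186, limma), a call lost without any 1 control library (-1.55 to -1.51). CCDC80 was at -1.21 under shARID1A/B (adjusted p = 0.0756, limma), which passed without any 1 shARID1A/B.2.3 library (-1.40 to -1.38), and at -0.92 under shARID1B (adjusted p = 0.225, limma), which passed with only the libraries compared (adjusted p = 0.0108, limma). GADD45A, at -0.69 under shARID1B (adjusted p = 0.0811, limma), passed without any 1 shARID1B.3 library (-0.82 to -0.81). PTPN14, which binds YAP and also stands on the list of upstream regulators, fell under shARID1A, and DOCK5 under shARID1B.

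All 7 genes of the core kinase cassette passed the filter. MOB1A, a scaffold that activates LATS kinases, fell by 2.14 under the shARID1A label (SE 0.61, adjusted p = 0.00965, limma) and by 1.72 under shARID1A/B (adjusted p = 0.0458, limma), with control libraries at 4383 to 4776 and those of shARID1A.4 at 644 to 670. In shARID1B.2, at 5085 to 5206, MOB1A was above the control libraries, so its level was not the same for the shRNAs of a label. Its call under shARID1A/B was lost when any 1 control or shARID1A/B library was left out (-1.77 to -1.66). STK3, a kinase at the head of the cascade, fell by 0.66 under shARID1A (adjusted p = 0.0480, limma), a call lost with edgeR (adjusted p = 0.0525) and without any 1 control or shARID1A.2 library, replicate 3 of shARID1A.4 or replicate 1 of shARID1B.2 (-0.69 to -0.60). MOB1B, at -0.59 under shARID1A (adjusted p = 0.0703, limma) and -0.64 under shARID1A/B (adjusted p = 0.0699, limma), did not pass, but it passed under shARID1A with only the libraries compared (adjusted p = 0.0278, limma) and under shARID1A/B without any 1 shARID1A/B.4.2 library (-0.74). LATS2 did not pass in any label, with values at 79.9 to 102 in the control and between 44.7 and 167 in silenced libraries. Under shARID1B, 0 core kinase genes were called with limma, edgeR or DESeq2, and 0 had an unadjusted p under 0.05 in limma.

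Of 33 upstream regulators, 31 were tested, and 13 fell and 1 rose under the shARID1A label, 5 fell under shARID1B and 10 fell under shARID1A/B, where 17.2%, 7.41% and 12.3% of all tested genes fell. With edgeR, 6 fell under shARID1A/B. TNIK, a kinase of the MAP4K-related group, fell in all 3 labels, by 1.53, 0.65 and 1.02 (SE 0.10, adjusted p = 6.89e-10, 0.000126 and 2.80e-07, limma, in that order). DCHS1, the cadherin ligand of FAT4, fell by 1.41 under shARID1A and 1.19 under shARID1A/B. AMOT, the angiomotin relative of AMOTL2, fell by 1.27 and 1.53 in these labels (adjusted p = 0.0404 and 0.0211, limma), and STRIP2, a subunit of the STRIPAK phosphatase complex, fell in all 3. The AMOT calls were lost without any 1 control library (-1.28 to -1.25 and -1.53 to -1.51), and that under shARID1A also without any 1 shARID1A.4 library (-1.11 to -1.09) and with edgeR (adjusted p = 0.0810) or DESeq2 (adjusted p = 0.0585). The STRIP2 call under shARID1A/B, -0.54, was lost without any 1 control or shARID1A/B.4.2 library or replicate 1 of shARID1A/B.2.3 (-0.59 to -0.48). The gene that rose under shARID1A was MINK1, named because it was the only one, by 0.72 (adjusted p = 0.0428, limma). MINK1 was at 1103 to 1337 in shARID1A.2 and 2255 to 2334 in shARID1A.4, against 1005 to 1039 in the control. In shARID1A/B.2.3 it was at 2121 to 2297, though its 0.63 under shARID1A/B did not pass (adjusted p = 0.0979, limma). VGLL4, a competitor of YAP for TEAD binding and the only one of 4 VGLL cofactors to pass the filter, fell by 1.43 and 1.61 under shARID1A and shARID1A/B (adjusted p = 0.00719 and 0.00448, limma). In shARID1B.3 its libraries, at 4378 to 4417, were above the control range of 3069 to 3189.

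For kinases, upstream regulators and VGLL cofactors together, 17 of 39 tested genes were called under shARID1A, 16 lower and 1 higher. Under shARID1B 5 were called and under shARID1A/B 12, all of them lower. These counts stand beside 17.2%, 7.41% and 12.3% of all tested genes called lower and 17.8%, 7.60% and 11.9% called higher. They depended on single libraries in every label. With each library left out in turn, the count under shARID1A ranged from 12 to 18. Leaving out any 1 control library took the count under shARID1A/B from 12 to 6, and leaving out any 1 control library or replicate 1 or 2 of shARID1B.3 took that under shARID1B from 5 to 3. For the target genes, leaving out any 1 control library or any 1 shARID1B.2 library took the count under shARID1B from 2 to 1.

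**Figure D5:**
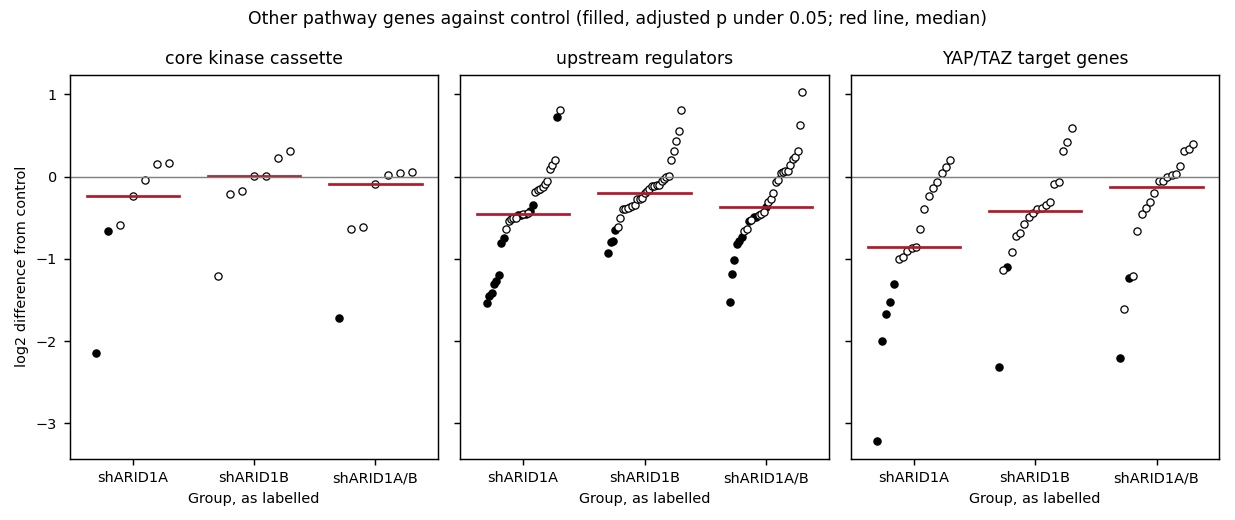
Log2 differences from control of the tested genes of the core kinase cassette (7), the upstream regulators (31) and the target genes of YAP and TAZ (18) under the 3 labels, with 1 point per gene in order of its value. Filled points passed an adjusted p of 0.05 in limma, and the red line is the median of the list, which is -0.86 for the target genes under the shARID1A label.

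The summed normalized values of the marker lists also moved between libraries. The 11 adrenergic markers summed to between 190672 and 196005 in the control and between 149750 and 495997, 130579 and 227557, and 152202 and 290776 under the shARID1A, shARID1B and shARID1A/B labels. The 10 mesenchymal markers summed to between 67861 and 70180 in the control and to between 42924 and 76179, 57814 and 70162, and 42229 and 63612 in the same order. Their part in the values of the members was not tested.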

How the data were processed

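Total RNA from 21 SK-N-BE(2) cultures, in 3 biological replicates per condition, was sequenced from stranded mRNA libraries. The submitters' notes name STAR 2.5.3a, RSEM 1.3.0, DESeq2 1.26.0 and GRCh38; whether counting used strand is not given in the sources used here. The deposited signal values are read counts that the authors divided by a size factor per library. Reads could be recovered from them: 100% of values were whole within 0.01 read, with the largest deviation at 0.0066. The authors' own comparison tables (fold changes and p-values) were not used.

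Values were tested as log2(value + 1) with limma 3.58.1 (trend, two-sided, Benjamini-Hochberg) in R 4.3.3, on 18584 genes kept by edgeR's filterByExpr, with 4 label groups, or with 7 conditions for differences between shRNAs. A gene was called at an adjusted p under 0.05. The 6 libraries of a label come from 2 shRNAs or 2 shRNA combinations, 3 of each, and are not fully independent. Alternatives were edgeR 4.0.16 quasi-likelihood and DESeq2 1.42.0 on recovered reads, other scalings, pseudocounts and filters, and leaving out each library. The scripts were tested on simulated data.

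The members and the gene lists were chosen with earlier results of these data known. Named from each list were up to 4 tested genes with the largest mean absolute difference from control and a mean value of at least 50, and beyond that rule PTPN14, DOCK5 and MINK1, chosen after their values were seen. Levels per kilobase used GENCODE release 29 exons. Replicate pairs of a condition differed by more than sampling noise (chi-square over degrees of freedom 1.54 to 3.99 in 21 pairs).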

Additional observations from a re-analysis of the deposited data

Results flagged for a closer look

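For 3 member values, all libraries of the shRNAs that share a label lay on opposite sides of the control, and the difference passed limma over all tested genes. AMOTL2 was above control in shARID1B.2 and below it in shARID1B.3, with a difference of 2.47 on the log2 scale (adjusted p = 3.02e-18, limma). TEAD2 was below control in shARID1B.2 and above it in shARID1B.3, with a difference of -0.28 (adjusted p = 3.56e-08, limma). TEAD3 was below control in shARID1A/B.2.3 and above it in shARID1A/B.4.2, with a difference of -0.56 (adjusted p = 2.59e-10, limma). These were 3 of 30 differences between shRNAs examined. The share of all tested genes that lay on opposite sides of the control in this way was not counted. Between the shRNAs of these labels, 66.0% (shARID1B) and 74.9% (shARID1A/B) of all tested genes passed limma. Nothing particular to the members is therefore read from the count.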

How the results depend on the processing

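Fitting the 7 conditions and averaging over the shRNAs of a label, which leaves the spread between shRNAs out of the error, raised these counts: members to 10 (shARID1A against shARID1B), 8 (shARID1A against shARID1A/B) and 7 (shARID1A/B against shARID1B), target genes to 15, 17 and 12, and the other pathway genes to 33, 31 and 29 (shARID1A, shARID1B and shARID1A/B against control). With DESeq2, 2 members passed between shARID1A and shARID1A/B and 5 between shARID1A/B and shARID1B. With only the compared libraries in the fit, 2 members passed between shARID1A and shARID1A/B, 5 target genes under shARID1B and under shARID1A/B, and 10 other pathway genes under shARID1B. Without the filter or with a replicate block, 1 target gene and 3 other pathway genes passed under shARID1B, and TMM scaling also gave 3. Scaling to total reads reversed TEAD3 (0.15, adjusted p = 0.0146, limma) and NF2 (0.046, adjusted p = 0.210, limma) between shARID1A.2 and shARID1A.4, a contrast in which this scaling moves the median of all genes from 0.03 to 0.18, by about as much as these genes. The causes of the other changes were not tested.

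With each library left out in turn, members passing ranged from 4 to 4, 1 to 2 and 2 to 3 in the comparisons between labels, in the order above. Between the shRNAs of a label they ranged from 9 to 9, 6 to 7 and 7 to 7. Target genes ranged from 4 to 6, 1 to 3 and 2 to 3 and the other pathway genes from 12 to 18, 3 to 6 and 6 to 12 under shARID1A, shARID1B and shARID1A/B. Libraries with the same replicate number did not deviate together (median correlation 0.007 over 63 pairs, 8 of them over 0.1, and 9 of 21 libraries correlated best with their own number), so the number is not treated as a pairing. With the block, TEAD3 between shARID1A/B and shARID1B also missed the threshold (adjusted p = 0.0584, limma), as did MOB1A and STRIP2 under shARID1A/B and STK3 and AMOT under shARID1A. Counting error weighs most on the lowest member values, those of CCN2 in shARID1A.4 (24.3 to 32.1).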

Other observations

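The order of the conditions split the members into sets, a pattern noticed after the values were seen and given without a test. The conditions with the lowest means were shARID1A.4 and shARID1A/B.2.3 for YAP1, WWTR1 and TEAD2, that is 3 of 10 members, beside 16.1% of all tested genes. They were also the lowest pair for 13 of 39 tested core kinases, upstream regulators and VGLL cofactors, among them AMOT, MOB1B, FRMD6, LATS2, WWC2 and WWC3, and for 1 of 18 target genes, LATS2 again. For CCN1, CCN2 and AMOTL2, another 3 of 10 members, the lowest conditions were shARID1A.4 and shARID1B.3, which hold for 8.20% of all tested genes. This was the lowest pair for 6 of 18 target genes, ANKRD1, ARHGEF17, CRIM1, NT5E, NUAK2 and TGFB2, and for 2 of 39 of the other pathway genes, MOB1A and STRN3. The co-activators and the readout genes thus shared shARID1A.4 as a low condition and differed in the other. Over all tested genes, shARID1A.4 with shARID1A/B.2.3 was the most frequent lowest pair. It was followed by shARID1A.2 with shARID1A/B.4.2, at 13.9%. Conditions under different labels can share an shRNA, and the part of shared shRNAs in this pattern was not tested.

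Over all 21 libraries and 13665 genes searched, the genes whose levels were most like those of YAP1 were UBALD2 (Pearson's r 0.97, Spearman's rho 0.96), SMTN (0.97, 0.84), GATA2-AS1 (0.97, 0.93), SYNPO2 (0.97, 0.93) and SEMA5A (0.97, 0.92). SEMA5A, a semaphorin of axon guidance, went from a mean of 674 in the control to 86.9 in shARID1A.4 and stood at 691 in shARID1B.2. Most like NF2 were TBC1D13 (0.98, 0.92), NKIRAS2 (0.98, 0.90), HCN2 (0.98, 0.90), PLPPR2 (0.97, 0.88) and ADCK1 (0.97, 0.89). HCN2, a pacemaker channel gene, had a mean of 256 in the control, 1113 in shARID1A.4 and 736 in shARID1B.2. These likenesses describe 21 points in 7 conditions that share libraries, cell line and scaling, and without the strand setting the reads of GATA2-AS1 cannot be told apart from those of an overlapping gene.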
